A study of Mus musculus with 8 samples.

Results

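The E2F transcription factor genes E2f1 to E2f8 and Rb1, the gene of the retinoblastoma protein, were followed through 8 RNA sequencing libraries of mouse embryonic stem cells. These 9 genes were listed by name, after their levels by treatment within each line had been seen, and all 9 were found among the 55291 gene symbols counted. The libraries came from the E14 line, edited so that the endogenous DHX35 or GPATCH1 protein carries the FKBP12 F36V degron. This tag is a handle through which the compound dTAG-13 hands the protein to the cell's degradation machinery. DHX35 is an RNA helicase and GPATCH1 its G-patch cofactor, and the study examined how their loss affects the fidelity of splicing. Cells of the DHX35-dTAG line and of the GPATCH1-dTAG line were exposed for 4 h to 200 nM dTAG-13 or to DMSO, the solvent. Each of the 4 groups held 2 libraries. All groups carry a degron, so an untagged line is not among the libraries analysed here. The lines were grown from picked single colonies, but the sample labels do not say which clones were sequenced or whether the libraries of a group came from separate cultures, so p-values measure only the spread between these libraries. The labels name the cells as E14, whereas their growth protocol mentions R1 cells.

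E2F proteins bind DNA near the start sites of genes for DNA replication and cell division. E2F1, E2F2 and E2F3 are known mainly as activators, E2F4 and E2F5 as repressors that act together with pocket proteins, E2F6 as a repressor that works without pocket proteins within a Polycomb complex, and E2F7 and E2F8 as atypical repressors that need no DP partner. The retinoblastoma protein is a pocket protein, which masks the activators until cyclin-dependent kinases phosphorylate it. Embryonic stem cells divide fast with a short first gap phase, and their pocket proteins are known to be held largely in the phosphorylated form.

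Counts per library added up to between 12014203 and 14994173. Levels are given as CPM, the share of a library's counts on a common scale, after scaling by edgeR's trimmed mean of M values (TMM). The labelled cell type was borne out by the markers, since all 10 embryonic stem cell markers examined stood at 10 CPM or more in every library. Of 8 fibroblast markers, 5 stayed under 1 CPM throughout, among them Col1a2 and Col3a1. Summed over each list, the stem cell markers stood at 5730 to 6409 CPM, and those of fibroblasts, primitive endoderm, trophoblast, neural cells and mesoderm at no more than 6.65, 7.71, 68.2, 98.1 and 6.87 CPM. Dhx35 mRNA lay between 72.3 and 84.8 CPM in its own line and between 58.1 and 64.9 CPM in the other, and Gpatch1 mRNA lay between 6.90 and 7.31 CPM in its own line and between 23.2 and 25.6 CPM in the other, with DMSO and dTAG-13 libraries overlapping in both own lines. The degron acts on the protein, so these mRNA levels do not show whether it was lost. The first DMSO library of the DHX35-dTAG line (replicate 1, called the deviating library from here on) correlated less well with the rest, at a mean of 0.976, against 0.988 to 0.990 for the others. Mitochondrial mRNAs took 0.272% of its counts, against 0.758% to 1.13% elsewhere. Of the marker sums, those of stem cells (6409 CPM, against at most 6166 elsewhere), fibroblasts (6.65 against 4.69), trophoblast (68.2 against 64.1) and mesoderm (6.87 against 5.66) were highest in this library, and those of primitive endoderm (5.54 against at least 6.21) and neural cells (87.9 against at least 91.9) were lowest. The part of these in the values of that library was not tested.

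All 9 genes were well above the detection limit, with raw counts from 85 for Rb1 to 2469 for E2f4. To compare genes with each other, CPM was divided by the length of their exons in kilobases, from all annotated transcripts of GENCODE M21 (GRCm38). Which of these transcripts the cells express was not examined, so the order holds for this choice of length only. On this scale E2f4 was the most abundant, at 60.5 ± 3.1 CPM per kilobase (SD, n = 8), followed by E2f1 at 22.5 ± 3.6. E2f3 and E2f5 came next, both with a mean of 11.2, and their ranges over the 8 libraries overlapped. E2f8 (5.99 ± 0.80), E2f6 (5.16 ± 0.50) and E2f2 (5.11 ± 0.64) overlapped in the same way. E2f7 followed at 3.32 ± 0.32 and Rb1 was the lowest at 1.53 ± 0.22, which put E2f4 39.6-fold above it. Of the 8 pairs of neighbours in this order, 3 overlapped and the other 5 did not. E2f4 alone made up 47.8% of the summed level of the 9 genes, more than any other member.

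**Figure D1:**
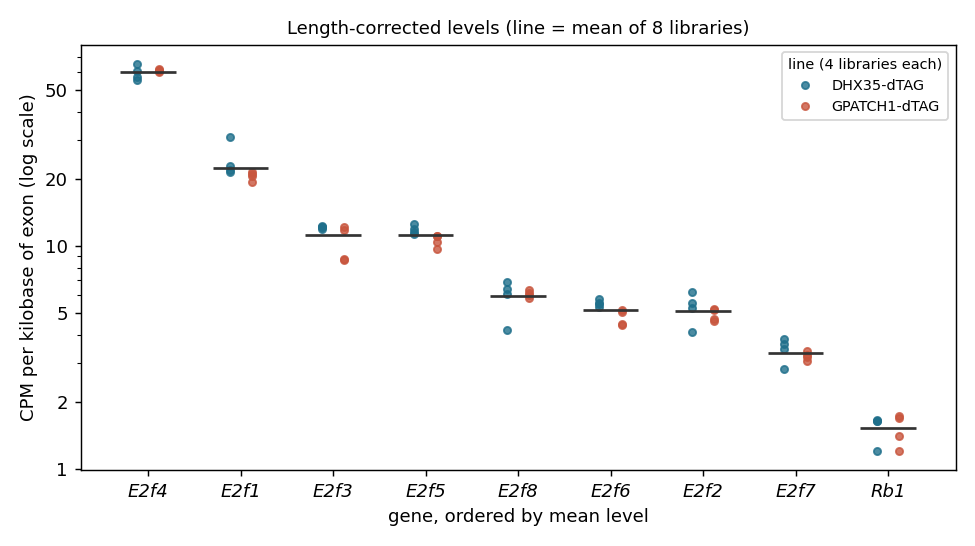
Each dot is one library, with CPM per kilobase of exon on a log scale and the genes ordered by their mean (horizontal line, n = 8 libraries). E2f4 lies at 60.5, E2f1 at 22.5 and Rb1 at 1.53, and the libraries of both lines lie close together for most genes.

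E2f3 was the member whose treatment groups stood furthest apart. The gene lies on the minus strand of chromosome 13 (29906575 to 29986063, GRCm38) and is known to give a longer protein, E2F3a, and a shorter one, E2F3b, from 2 start sites, which counts per gene cannot separate. In GPATCH1-dTAG cells its level was 66.3 and 63.7 CPM in the 2 DMSO libraries and 47.3 and 47.2 CPM in the 2 dTAG-13 libraries. Both treated libraries were thus below both controls, by a log2 difference of -0.46 (standard error 0.08), or 1.38-fold. Groups did not overlap for 41.8% of all genes in this contrast. In DHX35-dTAG cells E2f3 was 64.4 and 66.3 CPM in DMSO and 66.6 and 65.7 CPM in dTAG-13. These 4 values overlapped, with a log2 difference of 0.02 (standard error 0.08), which was -0.0012 without the deviating library. The 6 libraries other than those of GPATCH1-dTAG cells in dTAG-13 therefore lay close together, and E2f3 had the smallest spread between replicates of the 9 genes (0.025 on the log2 scale). Among all 16371 genes tested, 5.20% had a log2 difference below that of E2f3 in GPATCH1-dTAG cells. Since the members were listed with these values in view, they are a description without a test. The 2 genes with the highest counts (Gm23935, CT010467.1) together took 4.23% and 20.9% of the counts in the DMSO libraries of this line and 1.27% and 2.02% in its dTAG-13 libraries. Without these 2 genes the log2 difference of E2f3 was -0.47. In DHX35-dTAG cells their share was 3.15% and 1.54% in DMSO and 11.98% and 20.2% in dTAG-13.

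E2F genes are themselves known as targets of E2F proteins, so the promoter letters of the members were examined, with E2f3 first because of the values above. RefSeq windows (GRCm38.p6) from 250 bases before to 50 bases after a start site were at hand for 6 members, with 8 windows in all. E2f4, E2f5 and Rb1 were not among them. An E2F site was searched as TTTCCCGC, TTTGGCGC, TTTGCCGC or TTTCGCGC and a cell cycle homology region (CHR), an element of promoters bound by pocket proteins with MuvB, as TTTGAA, each on both strands. Of all 32851 promoter windows, 2.26% held such an E2F site and 17.9% held the CHR letters, and 3 of the 8 windows of the members held each. The upstream start of E2f3 held both, whereas its downstream start held neither. The matches are shown on the strand of the gene with 30 bases each, with the matching letters in capitals.
E2f3, upstream start (chr13:29986062-29986091, minus strand), CHR letters and then an E2F site: tatggTTTGAAaagccgGCGGGAAAtctga
E2f2, first start (chr4:136172294-136172323, plus strand), an E2F site: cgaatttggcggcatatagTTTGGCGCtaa
E2f2, second start (chr4:136180739-136180768, plus strand), CHR letters: atagcctgtgtgTTTGAAtggtgtggaaca
E2f7 (chr10:110745230-110745259, plus strand), an E2F site: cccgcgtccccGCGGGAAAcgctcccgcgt
E2f8 (chr7:48881599-48881628, minus strand), CHR letters: gagcgggttaatTTCAAAtcgggggctgga
In E2f3 the CHR letters begin 23 bases and the E2F site 11 bases before the start, and the letters do not overlap. In E2f8 the CHR letters begin 20 bases before the start. The windows of E2f1 and E2f6 held neither set of letters. That of E2f1 (154569377 to 154569676, minus strand) does not reach 154569892, the upstream end of the gene in GENCODE M21, so that end was not searched. A match describes the sequence only, and an absent match says only that these letters are not in the window.

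The log2 differences of the other activators were smaller than that of E2f3 in GPATCH1-dTAG cells, and in DHX35-dTAG cells those of both E2f1 and E2f2 depended on single libraries. E2f1 (chromosome 2, 154559407 to 154569892, minus strand) was 97.5 and 67.7 CPM in DMSO and 72.1 and 69.4 CPM in dTAG-13 in DHX35-dTAG cells. In GPATCH1-dTAG cells it was 65.0 and 68.0 CPM in DMSO and 66.4 and 61.0 CPM in dTAG-13. The value of 97.5 belongs to the deviating library, and the other 7 libraries lay between 61.0 and 72.1. The log2 difference of E2f1 in DHX35-dTAG cells, -0.22 (standard error 0.15), turned to 0.07 without that library and was -0.45 without replicate 2 in DMSO. E2f2 (chromosome 4, 136172394 to 136196057) was 30.4 and 25.8 CPM in DMSO and 27.0 and 20.1 CPM in dTAG-13 in DHX35-dTAG cells, where the groups overlapped. The log2 difference was -0.25 (standard error 0.15), and it was -0.13 without the deviating library, -0.48 without replicate 1 in dTAG-13 and -0.052 without replicate 2 in dTAG-13. In GPATCH1-dTAG cells E2f2 was 22.9 and 22.5 CPM in DMSO and 25.2 and 25.6 CPM in dTAG-13. These 4 values did not overlap, as was the case for 41.8% of all genes in this contrast, and the log2 difference was 0.16 (standard error 0.15).

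**Figure D2:**
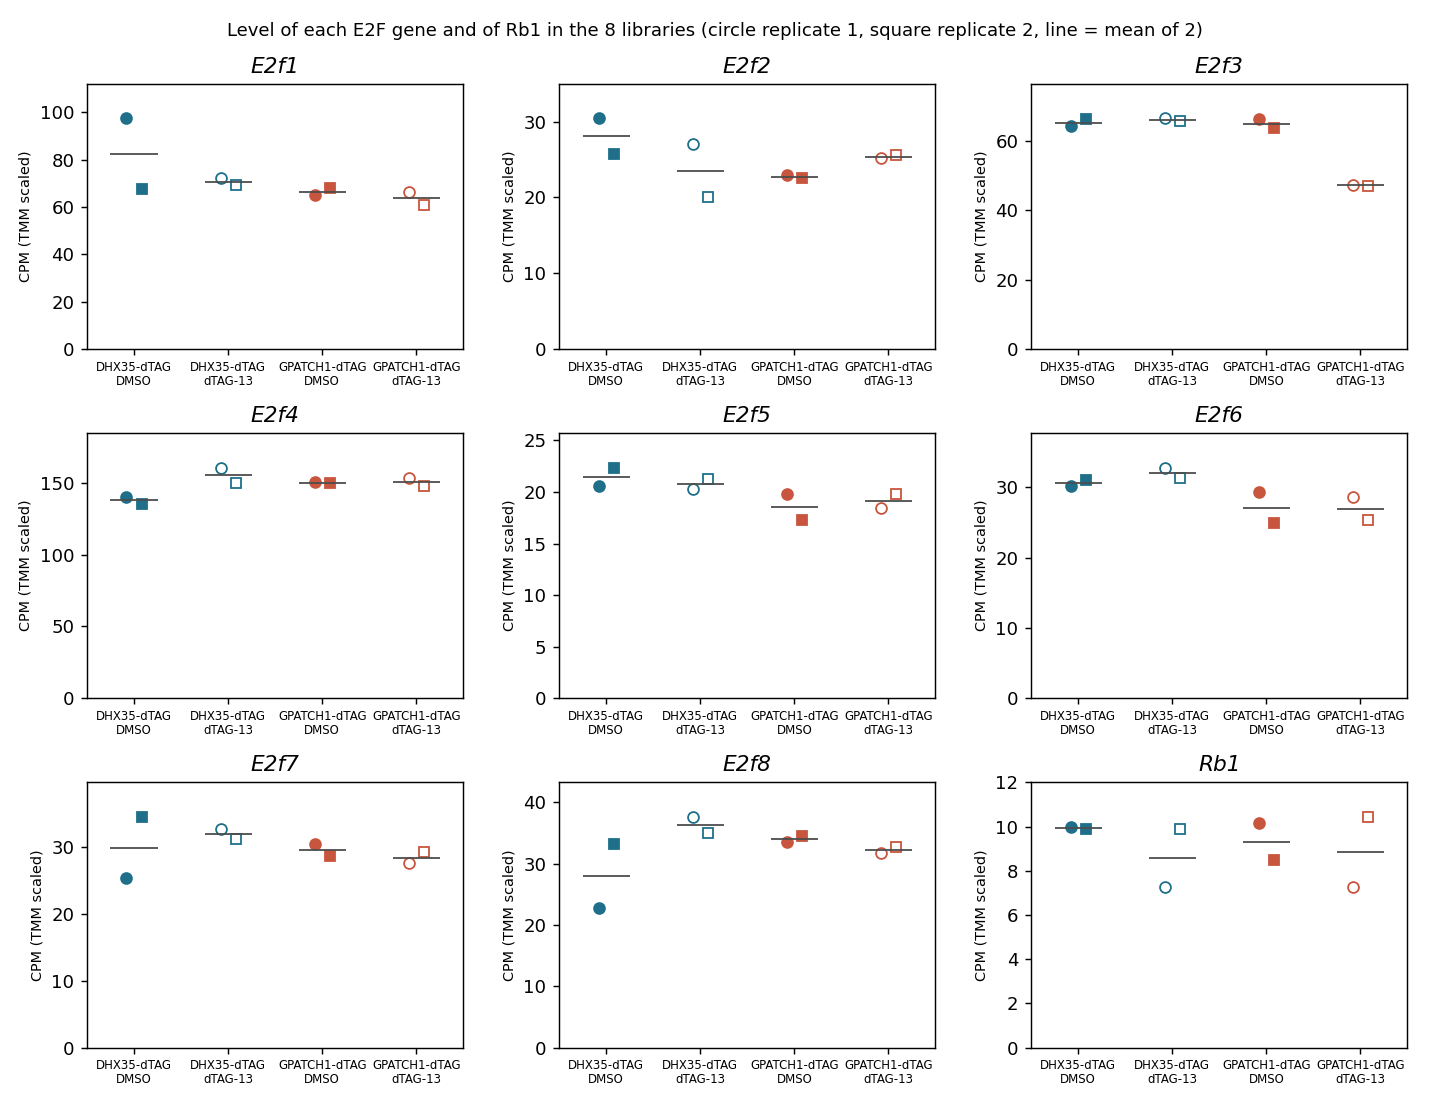
CPM (vertical axes, from 0) of each gene in the 4 groups, with a circle for replicate 1, a square for replicate 2 and a line for the mean of the 2 libraries. Filled symbols are DMSO and open ones dTAG-13. In GPATCH1-dTAG cells E2f3 lies at 66.3 and 63.7 in DMSO and at 47.3 and 47.2 in dTAG-13, and E2f1 has 1 high value of 97.5 in DHX35-dTAG cells in DMSO.

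Among the repressors that act with pocket proteins, E2f4 (chromosome 8, 105297663 to 105305370) was 140.1 and 135 CPM in DMSO and 160.5 and 149.7 CPM in dTAG-13 in DHX35-dTAG cells. Both treated values lay above both controls, by a log2 difference of 0.17 (standard error 0.08). Groups did not overlap for 28.7% of all genes in this contrast. In GPATCH1-dTAG cells E2f4 stayed between 147 and 153 CPM in all 4 libraries, with a log2 difference of 0.00 (standard error 0.08). E2f5 (chromosome 3, 14578641 to 14606309) ranged from 17.3 to 22.4 CPM, and its treatment groups overlapped in both lines, with a log2 difference of -0.05 in the DHX35-dTAG line and of 0.04 in the GPATCH1-dTAG line. With a library left out these ran from -0.11 (without the deviating library) to 0.023 (without replicate 2 in DMSO) and from -0.055 to 0.14 (without replicate 2 and replicate 1 in DMSO), so neither direction held. E2f6 (chromosome 12, 16810963 to 16839742), the repressor of the Polycomb complex, was 30.2 and 31.0 CPM in DMSO and 32.8 and 31.3 CPM in dTAG-13 in DHX35-dTAG cells. These did not overlap but were 0.07 apart on the log2 scale (standard error 0.12), or 0.033 and 0.11 without replicate 1 and replicate 2 in dTAG-13. In GPATCH1-dTAG cells E2f6 was 29.3 and 24.9 CPM in DMSO and 28.6 and 25.4 CPM in dTAG-13, and the replicates differed more than the groups, with a log2 difference of -0.0095 that ran from -0.12 to 0.12 with a library left out.

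The atypical repressors E2f7 (chromosome 10, 110745439 to 110787384) and E2f8 (chromosome 7, 48866429 to 48881596, minus strand) were both lowest in the deviating library. E2f8 was 22.8 and 33.2 CPM in DMSO and 37.6 and 35.0 CPM in dTAG-13 in DHX35-dTAG cells, with a log2 difference of 0.37 (standard error 0.16). This difference was 0.13 without the deviating library and 0.68 without replicate 2 in DMSO. In GPATCH1-dTAG cells E2f8 was 33.5 and 34.5 CPM in DMSO and 31.7 and 32.8 CPM in dTAG-13. The treated libraries lay below the controls by a log2 difference of -0.08 (standard error 0.16), in a contrast where groups did not overlap for 41.8% of all genes. E2f7 was 25.3 and 34.5 CPM in DMSO and 32.7 and 31.1 CPM in dTAG-13 in DHX35-dTAG cells. Its log2 difference there, 0.09, turned to -0.11 without the deviating library and was 0.35 without replicate 2 in DMSO. In GPATCH1-dTAG cells E2f7 lay between 27.6 and 30.3 CPM and the groups overlapped. The ratio of E2f1 to E2f8, both in CPM, was 4.28 in the deviating library and between 1.86 and 2.10 in the other 7. In that library E2f1 and E2f2 were thus high while E2f7 and E2f8 were low.

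Rb1 (chromosome 14, 73183673 to 73325822, minus strand) was the lowest member and the least precisely measured, with 85 to 157 counts per library. It was 9.98 and 9.90 CPM in DMSO and 7.27 and 9.91 CPM in dTAG-13 in DHX35-dTAG cells. In GPATCH1-dTAG cells it was 10.2 and 8.49 CPM in DMSO and 7.25 and 10.4 CPM in dTAG-13. The groups overlapped in both lines, with log2 differences of -0.21 (standard error 0.22) and -0.09 (standard error 0.21). With a library left out they ran from -0.45 to -0.0047 in DHX35-dTAG cells, without replicate 2 and replicate 1 in dTAG-13. In GPATCH1-dTAG cells they ran from -0.37 to 0.16, again without replicate 2 and replicate 1 in dTAG-13. The direction for Rb1 thus rested on single libraries in GPATCH1-dTAG cells, and in DHX35-dTAG cells the sign held but the size did not. Rb1 overlaps Lpar6 and Rcbtb2 on the opposite strand, with at most 164 and 233 counts in any library. The strand setting of the counting is not given in the sources used here, so reads of these genes may not be fully separated from those of Rb1. Genes that overlap E2f3, E2f7 and E2f8 had at most 28 counts. E2f5 overlaps the protein-coding gene 1810022K09Rik on the opposite strand, which has no count under that symbol, so reads of that gene may likewise not be fully separated from those of E2f5.

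Over the family as a whole, edgeR's quasi-likelihood test called 0 of the 9 members for dTAG-13 in either line or across both lines, where it called 0.0% of all genes. At an unadjusted p under 0.05 the count was 1 member in the DHX35-dTAG line, in the higher direction, against 5.39% of all genes (2.43% higher, 2.96% lower). It was 1 in the GPATCH1-dTAG line, in the lower direction, against 2.97% (0.886% higher, 2.08% lower), and 1 across both lines, also lower, against 3.59% (1.2% higher, 2.38% lower). DESeq2 called 0 of the 9 after adjustment in each of these contrasts, where it called 1, 0 and 4 of all genes. Groups did not overlap for 3 members in the DHX35-dTAG line, all higher, against 28.7% of all genes (14.6% higher, 14.1% lower). In the GPATCH1-dTAG line they did not overlap for 1 member that was higher and 2 that were lower, against 41.8% of all genes (21.5% higher, 20.3% lower), and across both lines for 0 members, against 2.25% (1.03% higher, 1.22% lower). As the listing used these contrasts, the counts are a description and nothing is read from them. The median log2 difference of the 9 genes was 0.02 in the DHX35-dTAG line and -0.06 in the GPATCH1-dTAG line, against -0.01 and 0.00 over all genes. Without the deviating library the medians of the 9 genes were -0.0012 and -0.058, against 0.0023 and 0.0026 over all genes.

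The difference between the lines, with treatment as a term in the model, was not the contrast on which the members were listed and was tested. It was taken over the same 8 libraries, so it is not independent of the listing where it comes from 1 treated group, as for E2f3. Again 0 of the 9 genes passed an adjusted p of 0.05 in edgeR, where 0.788% of all 16371 genes did (0.336% higher, 0.452% lower), and DESeq2, which called 227 of all genes, called 0 of them as well. At an unadjusted p under 0.05, the count was 2 members, both lower in GPATCH1-dTAG cells, of which E2f3 is a description only and the other is E2f6, against 15.3% of all genes (6.44% higher, 8.88% lower). The 4 libraries of GPATCH1-dTAG cells lay entirely below the 4 of DHX35-dTAG cells for 2 members, E2f5 and E2f6, while groups did not overlap for 11.6% of all genes (5.63% higher, 6.0% lower). E2f6 was 27.1 ± 2.2 CPM (SD, n = 4) in GPATCH1-dTAG cells and 31.3 ± 1.1 (SD, n = 4) in DHX35-dTAG cells, which is -0.21 on the log2 scale (standard error 0.08, adjusted p = 0.26). E2f5 was 18.9 ± 1.2 and 21.1 ± 0.9 CPM, which is -0.16 on the log2 scale (standard error 0.08, adjusted p = 0.36). Neither difference passed the threshold, though for both the 2 sets of libraries were fully separated.

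Between the lines E2f1 differed by -0.23 on the log2 scale (standard error 0.10, adjusted p = 0.33), which was -0.10 without the deviating library. E2f3 differed by -0.24 (standard error 0.09) and by -0.29 without the deviating library. This value combined 2 unlike parts, since the lines differed by -0.01 in their DMSO libraries (65.0 ± 1.8 against 65.4 ± 1.3 CPM, SD, n = 2) and by -0.49 in their dTAG-13 libraries. The second rests on the dTAG-13 libraries of GPATCH1-dTAG cells already described, so its value is a description with no test. E2f2, E2f4, E2f7, E2f8 and Rb1 had log2 differences between -0.10 and 0.05, with standard errors from 0.06 to 0.15. Without the deviating library the value of E2f7 went from -0.09 to -0.19 (adjusted p = 0.67 and 0.085, edgeR), that of E2f2 from -0.10 to -0.013, that of E2f8 from 0.05 to -0.088 and that of Rb1 from -0.03 to -0.013. With any 1 library left out, E2f7 ran from -0.19 to -0.012 and E2f2 from -0.22 to -0.013. In all, 7 of the 9 genes had a negative and 2 a positive value (8 and 1 without the deviating library), with a median of -0.10 against -0.01 over all genes.

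**Figure D3:**
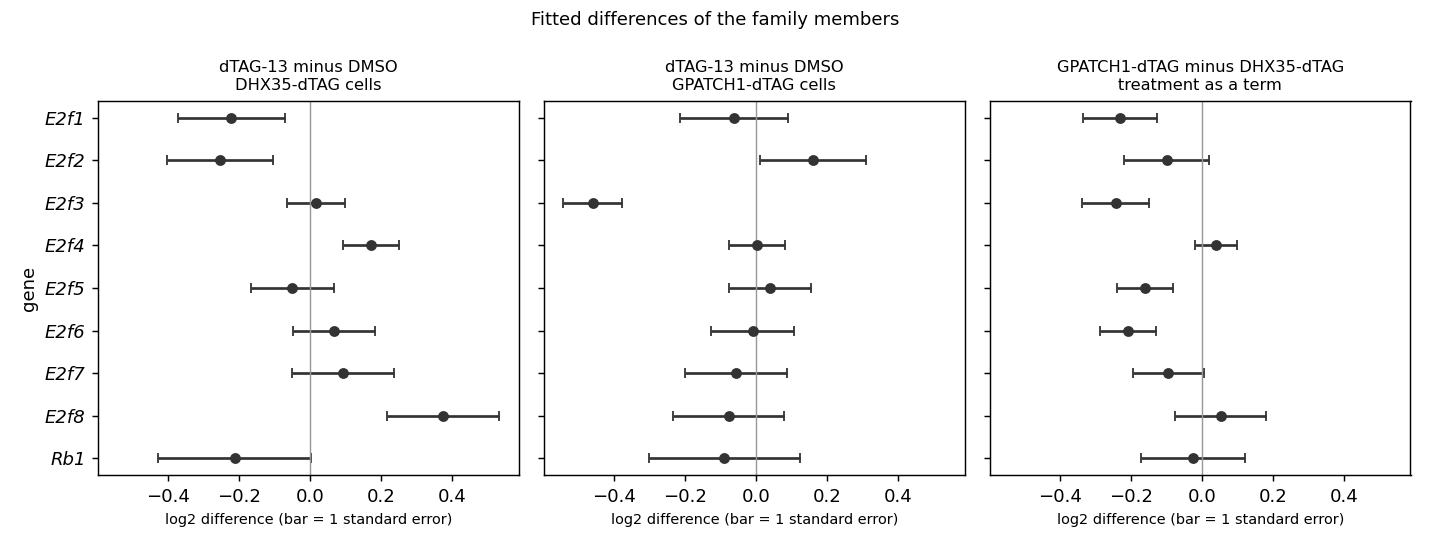
Fitted log2 differences (points) with 1 standard error (bars) for the 9 genes, for dTAG-13 against DMSO in each line and for GPATCH1-dTAG against DHX35-dTAG cells. E2f3 lies at -0.46 in the middle panel and at 0.02 in the left one, and the line differences in the right panel range from -0.24 to 0.05.

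The partners, regulators and targets of the family were counted in 7 lists with 95 genes, all of which were tested. On dTAG-13, 0 of the 95 passed the adjusted threshold in either line or across both lines, and 0 reached an unadjusted p under 0.05 (edgeR), against 5.39% of all genes in DHX35-dTAG cells, 2.97% in GPATCH1-dTAG cells and 3.59% across both. DESeq2 called 0 of them as well. Between the lines, 1 of the 95 passed, where 0.788% of all genes did. At an unadjusted p under 0.05 (edgeR) the count was 12, which is 12.6% against 15.3% of all genes. 

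Pocket proteins, DP partners and members of the MuvB complex gave 0 called genes of 10 between the lines, with a median log2 difference of 0.04 against -0.01 over all genes. The most abundant were Mybl2, which encodes the B-Myb factor that joins MuvB in dividing cells (845 ± 22 CPM in DHX35-dTAG and 824 ± 23 in GPATCH1-dTAG cells, SD, n = 4), and Rbbp4, a histone-binding MuvB subunit (446 ± 13 and 474 ± 18 CPM). The highest value was that of Tfdp1, the main DP partner of the E2F proteins, at 0.19 (standard error 0.06, adjusted p = 0.23). The lowest was that of Lin37, a MuvB subunit, at -0.05 (standard error 0.09). Cyclins and kinases that act on pocket proteins also gave 0 called genes of 10, with a median of 0.01. Their most abundant members were Cdk4, the kinase of the D cyclins, and Ccnd3, which had 326 ± 26 CPM in DHX35-dTAG and 282 ± 11 in GPATCH1-dTAG cells. Cyclin D2, Ccnd2, was nearest to the threshold. It was 13.01, 13.9, 13.6 and 14.2 CPM in DHX35-dTAG cells and 11.1, 9.73, 9.54 and 10.3 CPM in GPATCH1-dTAG cells, or -0.43 on the log2 scale (standard error 0.09, adjusted p = 0.064, but 0.048 with no expression filter). The 2 sets did not overlap, as was the case for 11.6% of all genes between the lines. Cyclin E2, Ccne2, had the highest value of this list, 0.15 (standard error 0.12).

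The inhibitors of cyclin-dependent kinases gave 0 called genes of 7 between the lines, with a median log2 difference of -0.15. Cdkn1a, which encodes p21, was 62.3 ± 4.0 CPM in DHX35-dTAG and 72.2 ± 1.8 in GPATCH1-dTAG cells (SD, n = 4), or 0.21 on the log2 scale (standard error 0.06, adjusted p = 0.18). Cdkn1b, which encodes p27, had -0.18 (standard error 0.09). Cdkn2d, which encodes p19 of the INK4 type, had the lowest value, -0.53 (standard error 0.16, adjusted p = 0.18, but 0.027 with no expression filter), and Cdkn2c the highest, 0.22 with a standard error of 0.36 at a mean over the 8 libraries of 0.92 CPM. The partners of E2F6 in its Polycomb complex gave 0 called genes of 12, with a median of 0.04. Mga, the scaffold of that complex, and Wdr5 were the most abundant, with log2 differences of 0.04 and -0.03. Hdac1, a histone deacetylase, had the highest value (0.12, standard error 0.05) and Ring1, a ubiquitin ligase of Polycomb complexes, the lowest (-0.24, standard error 0.12).

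The single called gene was among 6 germline genes known to be repressed through E2F6. Tuba3a, which encodes an alpha-tubulin of the testis, was 63.6, 52.3, 62.6 and 60.0 CPM in the 4 DHX35-dTAG libraries and 34.9, 35.3, 38.0 and 36.4 CPM in the 4 GPATCH1-dTAG libraries. The 2 sets did not overlap, and the log2 difference was -0.72 (standard error 0.07, adjusted p = 0.0019, edgeR), or 1.65-fold lower in GPATCH1-dTAG cells. Its adjusted p ran from 1.05e-11 to 0.081, over the alternatives, with 0.077 in the DMSO and 0.081 in the dTAG-13 libraries alone. The log2 difference was -0.72 in each of these subsets and ran from -0.77 to -0.66 over the alternatives. Tuba3b, a near-identical copy, was 0.80 ± 0.23 and 0.44 ± 0.12 CPM, or -0.83 on the log2 scale (standard error 0.34, adjusted p = 0.28), and the counting may have split reads between both genes. Stag3, a meiotic cohesin subunit, had the highest value, 0.13 (standard error 0.07). The list had a median of -0.28, with 1 gene lower and 0 higher by the test, against 0.452% lower and 0.336% higher of all genes.

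The E2F targets of the G1/S transition gave 0 called genes of 30 between the lines, with a median log2 difference of 0.05. Msh6, a mismatch repair gene, and Uhrf1, a cofactor of maintenance DNA methylation, were the most abundant, with log2 differences of -0.13 and 0.04. Values ran from -0.15 for Gins1, a subunit of the replicative helicase, to 0.16 for Tk1, thymidine kinase. For dTAG-13 against DMSO, the median of the 30 targets was -0.01 in the DHX35-dTAG line, with 14 positive values, and 0.03 in the GPATCH1-dTAG line, with 23 positive values, against -0.01 and 0.00 over all genes. Of these 30, 0 reached an unadjusted p under 0.05 (edgeR) in either line, and the counts of positive values were not tested. The genes of the G2/M phase gave 0 called genes of 20, with a median of 0.04 between the lines. Top2a and Ccnb1 were the most abundant, at 0.05 and 0.14, Cenpe, a kinesin of the kinetochore, had the highest value at 0.18 and Ube2c, a ubiquitin-conjugating enzyme of mitosis, the lowest at -0.18. In bulk RNA, fewer cells in a phase and less RNA per cell cannot be told apart. Among the genes named in these lists, several line differences moved by over 1.5 times without the deviating library. That of Lin37 turned to 0.03 and that of Mga to -0.03, that of Cdkn2c rose to 0.60, and those of Msh6 and Gins1 shrank to -0.02 and -0.05. Those of Ccne2, Uhrf1 and Ccnb1 shrank to 0.06, 0.01 and 0.06. Without that library 5 of the 95 genes were called between the lines, namely Cdkn1a, Pcna and Rrm2 as higher and Ccnd2 and Tuba3a as lower in GPATCH1-dTAG cells, with 5.95% of all genes called in that fit.

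**Figure D4:**
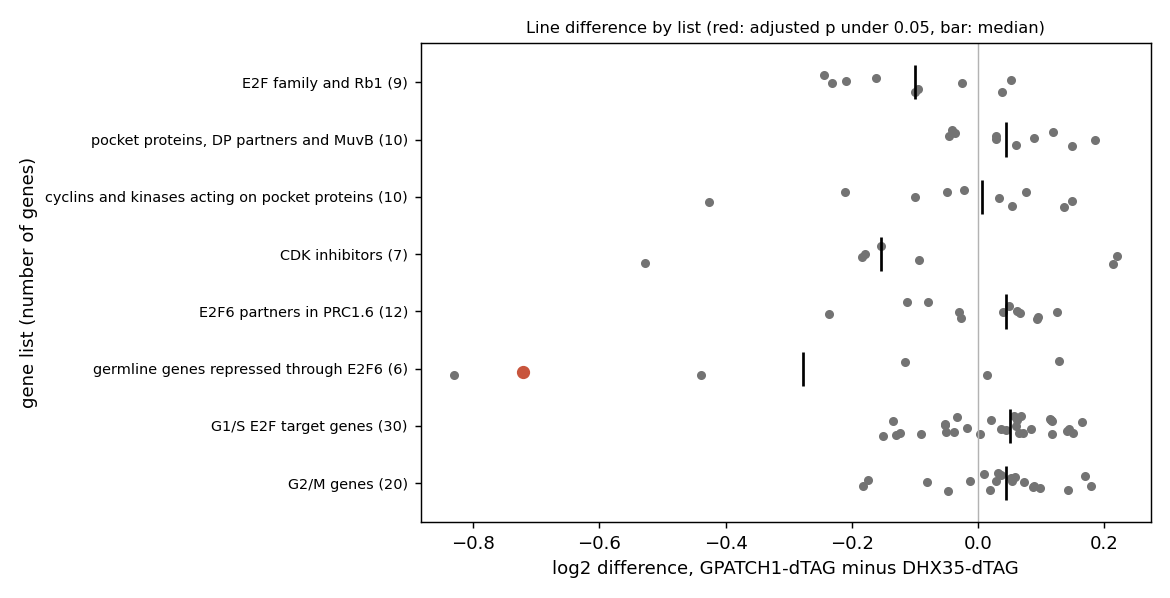
Log2 differences of GPATCH1-dTAG minus DHX35-dTAG cells for the 9 members and the 7 lists, with one dot per gene and a bar at the median. The one red dot, Tuba3a at -0.72, is the gene with an adjusted p under 0.05, and the G1/S targets lie between -0.15 and 0.16.

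The genes whose level across the 8 libraries was most like that of E2f1 were Cenps, Glrx5 and Mtln, with Pearson correlations of log2 CPM of 0.997, 0.994 and 0.993. These were chosen from 10562 genes with a mean of at least 5 CPM, of which 625 exceeded 0.9. Without the deviating library the same 3 genes had 0.983, 0.952 and 0.959. For Rb1 they were Socs4, Marchf5 and Gclm, with 0.977, 0.945 and 0.938, and 5 genes exceeded 0.9. All values share the same 8 libraries, and they describe these libraries only.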

How the data were processed

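RNA was sequenced from 8 libraries, 2 for each line and treatment. The authors depleted ribosomal RNA, added human DLD-1 RNA, made stranded libraries, trimmed reads with Trim Galore 0.6.6 and aligned them with STAR 2.7.5c to mm10 and hg19. They deposited raw counts per gene symbol. The counting program, annotation and strand setting are not given in the sources used here. Groups and replicate numbers came from the sample labels.

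The counts were analysed with edgeR 4.0.16 in R 4.3.3 (TMM, filterByExpr on the 4 groups, glmQLFit and glmQLFTest, Benjamini-Hochberg adjustment over 16371 genes, threshold 0.05). The dTAG-13 contrasts had 1 term per group, and the line difference had treatment and the dTAG-13 contrast across both lines had line as a term. All 8 libraries shared 1 estimate of the spread. Standard errors are the log2 difference divided by the square root of F. The test of the line difference was run on simulated data that held no deviating library, and the dTAG-13 contrasts were not simulated. The members and lists were chosen with earlier results of these data known, and the members were listed on the dTAG-13 contrasts, so that counts and values of members on these contrasts are a description. They carry no p-values beyond the counts at an unadjusted p under 0.05 that stand beside counts of 0. Beside the 9 members, genes named were, in each list, the 2 most abundant, those called between the lines and those with the highest and lowest line difference, and for E2f1 and Rb1 the 3 genes with the highest correlation at a mean of at least 5 CPM. E2f3, Pcna and Rrm2 in single alternatives and the ratio of E2f1 to E2f8 were singled out after their values were seen. Of the 55291 symbols, 53292 matched GENCODE M21. Replicates were not duplicates, with a chi-square per gene of 5.49 to 139. Total counts of 12014203 to 14994173 and a coefficient of variation between replicates of 11.2% set the precision. The alternatives were DESeq2 1.42.0, its size factors, other expression filters, a replicate block, subsets of libraries, removal of the 2 most abundant genes and each library left out in turn. Splicing and the spike-in were not analysed here.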

Additional observations from a re-analysis of the deposited data

Results flagged for a closer look

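Replicate 1 of DHX35-dTAG cells in DMSO had a gap to the nearest library above Dixon's 95% limit for 8 values in 3 of 10 measures examined, a limit that chance passes in about 1 of 20 groups. The measures share this library and include levels seen when the members were listed, so they are given as a description. Its E2f1 level of 97.5 CPM was the highest of the 8, with a gap to the next library of 0.697 of the whole range. Its E2f8 level of 22.8 CPM was the lowest, with a gap of 0.599 of the range. The correlation of its log2 CPM with that of the rest averaged 0.976, with a gap of 0.879 of the range.

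The E2f8 values differed in direction between the lines, since both dTAG-13 libraries lay above both DMSO libraries in DHX35-dTAG cells (log2 difference 0.37) and below them in GPATCH1-dTAG cells (log2 difference -0.077, standard error 0.16). Groups did not overlap for 28.7% of all genes in the former contrast and for 41.8% in the latter. This difference between the lines was not tested, and the first value was 0.13 without that replicate 1 library.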

How the results depend on the processing

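Between the lines, 129 genes were called, against 920 with no expression filter, 227 with DESeq2, 15 in the DMSO libraries only and 15 in the dTAG-13 libraries only, and 27 to 1013 with a library left out. The highest came with the deviating library (DHX35-dTAG, DMSO, replicate 1) left out, where 1 member, E2f3, was called against 0 in the other 7, a description only, since its line difference came from the dTAG-13 libraries. Leaving out any of the 6 libraries other than those of DHX35-dTAG cells in DMSO gave 27 to 54. The 95 other pathway genes gave 3 calls with no expression filter (Tuba3a, Ccnd2 and Cdkn2d), 0 in the DMSO libraries only, 0 in the dTAG-13 libraries only and 1 to 5 with a library left out, against 1. In the dTAG-13 libraries only, the line difference turned to 0.11 for E2f2, -0.046 for E2f4, -0.17 for E2f8 and 0.038 for Rb1, and in the DMSO libraries only it was -0.30, 0.12, 0.28 and -0.085. With a library left out it ran from -0.088 to 0.12 for E2f8 and from -0.14 to 0.066 for Rb1.

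For dTAG-13 in DHX35-dTAG cells, 345 genes were called with no expression filter, 1 with DESeq2, 1 with only the 4 libraries compared and 0 to 4949 with a library left out, with 0 to 4 members and 0 to 37 pathway genes. The highest counts came with replicate 2 in DMSO left out, which leaves the deviating library as the only control, and the members then called were E2f1, E2f2, E2f7 and E2f8. In GPATCH1-dTAG cells, 21 genes were called with no expression filter, 127 with only the 4 libraries compared, 1 member (E2f3) among them, and 0 to 51 with a library left out, with 0 to 1 members. These member calls are a description, since the listing used these contrasts. The log2 difference of E2f3 there was between -0.49 and -0.43 with a library left out. Across both lines, 80 genes were called with no expression filter, 4 with DESeq2 and 0 to 8 with a library left out. Where a group is left with 1 library, that library is assumed to vary like the others. The cause of these changes was not tested.

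Replicate numbers were not treated as pairs in the main fit. Same-numbered libraries deviated together weakly, with correlations, all positive, that ran from 0.037 to 0.23 between groups. They were under 0.1 in 4 of the 6 pairs of groups. Whether same-numbered libraries shared a culture or batch is not in the labels and was not tested. With a replicate block 151 genes were called between the lines and 0 for each dTAG-13 contrast, and no member changed its side of the threshold. No setting moved the median of all genes by over 0.1 on the log2 scale.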
